A study of Mus musculus with 12 samples.

Results

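The proteasome genes of the mouse testis were followed over the first wave of spermatogenesis. They were taken as all protein-coding genes whose symbol is Psm, a letter from a to g and a number, which gave 48 symbols on 50 Ensembl entries of the 37675 genes listed. Psmb9 and Psmd14 have a second entry each that covers the same locus, and each was counted under 1 entry. Whole testes were sampled from C57BL/6NHsd mice, an inbred laboratory strain, at postnatal day (PND) 7, 14, 17, 21 and 28, with 2 mice at each age and no treatment or transgene. Germ cells advance together at these ages, from spermatogonia at PND 7 through spermatocytes to elongating spermatids at PND 28, beside the Sertoli, Leydig, myoid and other somatic cells. Reads came from RNA without ribosomal RNA on the SOLiD 4 instrument, and the RNA of each PND 7 mouse was read under 2 barcodes that were joined here. In such bulk tissue, fewer cells of a type and less RNA per cell cannot be told apart.

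The proteasome is the protease that degrades proteins tagged with ubiquitin. Its barrel-shaped 20S core holds outer rings of alpha subunits, encoded by Psma genes, around inner rings of beta subunits, encoded by Psmb genes, some of which carry the proteolytic sites. The 19S regulator, made of Psmc ATPases and Psmd non-ATPases, recognises, unfolds and feeds in the substrate, while the Psme activators open the core without it. In male germ cells Psma8 takes the place of Psma7 in a testis form of the core, and Psme4 encodes an activator known for its part in the loss of histones from spermatids. In immune cells Psmb8, Psmb9 and Psmb10 take the places of Psmb5, Psmb6 and Psmb7.

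Total counts of the mice lay between 3994026 and 13559548, with a median of 7103531. Levels are given as scaled RPKM, computed from the counts with library sizes scaled by TMM, so they compare genes per length of exon. PND 14 mouse 1 stood apart from its age. The summed level of 7 spermatid genes was 387 scaled RPKM in it and 19.6 in PND 14 mouse 2, and between 19.7 and 19.9 at PND 17, 158 and 169 at PND 21, and 10649 and 12826 at PND 28. Its transition protein Tnp1 was at 133 scaled RPKM against 4.72 in the other PND 14 mouse, and its summed spermatocyte genes, 8 in number, at 995 against 1652. Results at PND 14 are therefore also given without this mouse. In the authors' mapping statistics, a larger share of reads fell on introns in mouse 1 than in mouse 2, at PND 14 and at PND 21. Across ages, the intron share was larger in both PND 7 mice than in every later mouse, so it also differs between the ages compared. Whether this bears on the levels of members was not tested.

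The members together took a growing share of all counts. At PND 7 they made up 0.275% and 0.280% of a mouse's counts. This share was 0.386% and 0.432% at PND 14, 0.438% and 0.415% at PND 17, 0.484% and 0.464% at PND 21, and 0.595% and 0.594% by PND 28. The order of these shares followed the ages apart from an overlap between PND 14 and PND 17. The 6 members whose share grew most from PND 7 to PND 28 were Psme4, Psmc3, Psma6, Psmc2, Psmd8 and Psma8. They went from 0.0594% and 0.0541% at PND 7 to 0.350% and 0.361% at PND 28. These 6 were picked by this same gain after their values were seen, so a large part in it follows from the choice. Shares are of raw counts, in which long genes such as Psme4, with 8382 exon bases, weigh more. The other 42 members together were at 0.215% and 0.225% at PND 7, between 0.242% and 0.289% at the middle ages, and at 0.244% and 0.233% at PND 28. Among these 42 some members rose and some fell, such as Psmb6 and Psma7. Levels of single members ranged from a mean of 231 scaled RPKM over the 10 mice for Psma6 to 0.0268 for Psmb11. Of the 48 members, 47 passed the filter on low counts, and Psmb11 with 7 counts in all did not.

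Each age was compared with the one before and PND 28 with PND 7 by edgeR's quasi-likelihood test, called at a Benjamini-Hochberg adjusted p under 0.05 over 16860 genes. Between PND 7 and PND 28, 26 of 47 members were called, 21 higher and 5 lower, beside 62.6% of all genes tested, 35.6% higher and 27.1% lower. Of these 17 also changed at least 2-fold, 14 higher and 3 lower, beside 55.6% of all genes. The share of members called lay slightly below that of all genes, and nothing about the members is drawn from this. With TMM scaling, the share called higher was above that of all genes and the share called lower was below it. The median change was 0.50 on the log2 scale for members and 0.10 for all genes tested. Any difference among the 5 ages was called for 18 members, beside 57.5% of all genes. When libraries were scaled by their totals alone, the median change of all genes from PND 7 to PND 28 moved by -0.32, and the members called were 14 higher and 9 lower. The shares of all genes called with library totals are not given, here or for the steps below. Whether members and all genes differ in direction under that scaling was therefore not tested.

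Among neighbouring ages, the step from PND 7 to PND 14 held most of the calls. There 8 members were called, 7 higher and 1 lower, beside 22.3% of all genes, 15.8% higher and 6.43% lower, and 5 of them changed at least 2-fold, beside 18.9%. Library totals gave 11 higher and none lower. Without PND 14 mouse 1 the count was 10, these 8 with Psmb7 and Psmc5. Without PND 14 mouse 2 it was 1, which was Psma8, and without PND 7 mouse 2 it was 3, with Psma8 and Psmg2 left of the 8. From PND 14 to PND 17 edgeR called 0 members, beside 0% of all genes with either rule. An unadjusted p under 0.05 (edgeR) was reached by 0 members, beside 769 of all 16860 genes tested. DESeq2 and limma also called 0, as did edgeR without PND 14 mouse 1.

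From PND 17 to PND 21, 2 members were called, 1 in each direction, beside 11.8% of all genes, 10% higher and 1.74% lower, and both changed at least 2-fold, beside 10.3%. They were Psma7, which fell, and Psme4, which rose. This count was 0 without either PND 17 mouse and without PND 21 mouse 1. From PND 21 to PND 28, 3 members rose, each at least 2-fold, namely Psmf1, Psma6 and Psmc2, beside 8.27% of all genes called, 7.91% called higher and 7.66% called with a 2-fold change. The count became 5 when either PND 14 mouse was left out of the shared estimate of spread. The 11 members called between neighbouring ages were all among the 26 called from PND 7 to PND 28.

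**Figure D1:**
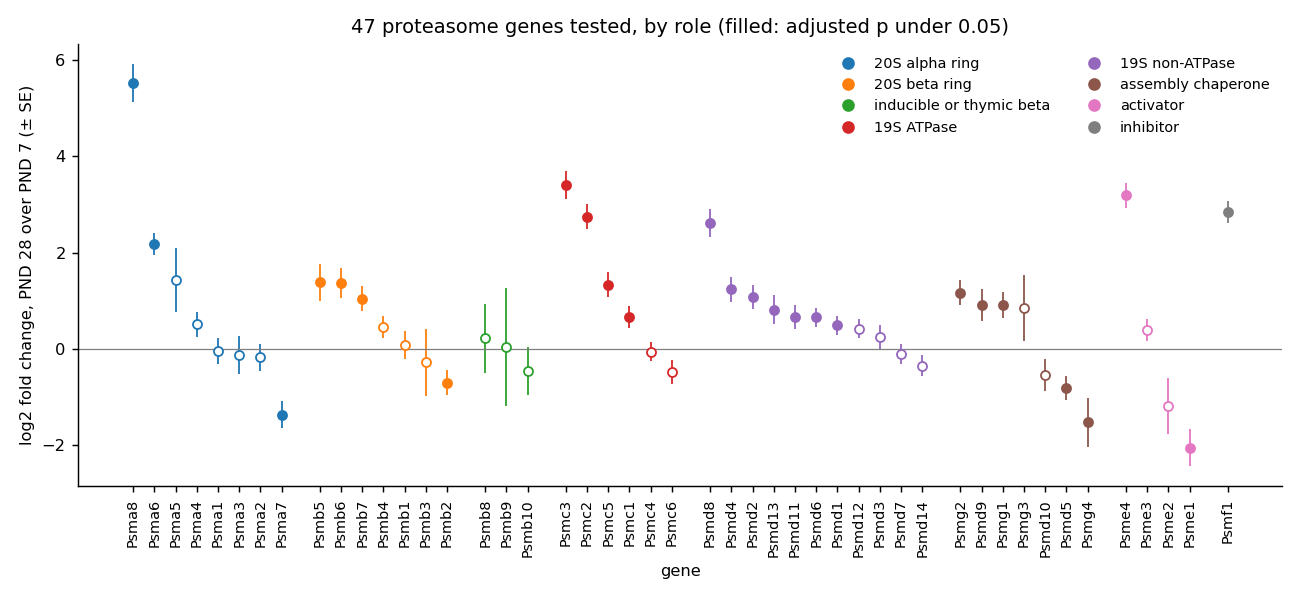
Log2 fold change from PND 7 to PND 28 of the 47 tested members (y axis, ± SE, 2 mice per age), ordered by role along the x axis. Filled points passed an adjusted p under 0.05, and Psma8 at 5.52 stands highest and Psme1 at -2.05 lowest.

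Of the 8 alpha ring genes, Psma8 and Psma6 rose and Psma7 fell from PND 7 to PND 28, and the other 5 were not called. This and every count by class below is to be read against the 62.6% of all genes called over this span. Psma8, the testis alpha subunit on chromosome 18, was at 3.86 and 2.12 scaled RPKM in the PND 7 mice, 72.9 and 132 at PND 14, 121 and 108 at PND 17, 141 and 179 at PND 21, and 125 and 153 at PND 28. All 8 mice from PND 14 on lay far above both PND 7 mice, and PND 14 overlapped PND 17 as PND 21 overlapped PND 28. The rise from PND 7 to PND 14 was 33.6-fold (5.07 ± 0.39 on the log2 scale, SE, adjusted p = 1.71e-05, edgeR), and no later step of Psma8 was called. Without PND 14 mouse 1 it remained called at 5.40 on the log2 scale, and over every alternative it lay between 4.57 and 5.62.

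Psma7, the alpha subunit of somatic cells that Psma8 replaces, lies on chromosome 2 at chr2:179771078-179777138 (mm9, minus strand). Its levels were 42.3 and 46.2 scaled RPKM at PND 7, 39.4 and 44.6 at PND 14, 41.3 and 47.4 at PND 17, 13.9 and 25.4 at PND 21, and 19 and 15.2 at PND 28. Every mouse up to PND 17 was above every mouse from PND 21 on. The fall came between PND 17 and PND 21, 2.25-fold (-1.17 ± 0.28 on the log2 scale, SE, adjusted p = 0.023, edgeR), although it did not pass without either PND 17 mouse or without PND 21 mouse 1, where the adjusted p lay between 0.086 and 0.18. The fall from PND 7 to PND 28 was 2.58-fold (adjusted p = 0.00151, edgeR).

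The ratio of Psma8 to Psma7 within a library was taken as the difference of log2(RPKM + 1), which understates ratios of genes at low levels, and was -3.61 ± 0.61 (SD, n = 2) at PND 7. With nothing added, when the ratio does not depend on how libraries are scaled, it was -4.02 ± 0.79 at PND 7 and 3.02 ± 0.43 at PND 28. With 1 added, at PND 14 and PND 17 it was 1.21 ± 0.47 and 1.35 ± 0.25, and at PND 21 and PND 28 it was 3.01 ± 0.35 and 2.94 ± 0.42. Mice of PND 14 and PND 17 overlapped, as did those of PND 21 and PND 28, and the ratio crossed 0 between PND 7 and PND 14. Differences among ages passed an exact permutation test of the age labels over the 10 mice (one-sided by construction, p = 0.00847, adjusted p = 0.0339 over 4 ratios, where the smallest p the design allows is 0.00106). Of the levels of both genes together, Psma8 made up 8.36% and 4.39% at PND 7, 64.9% and 74.7% at PND 14, 74.6% and 69.5% at PND 17, 91.0% and 87.6% at PND 21, and 86.8% and 91.0% at PND 28. The coding sequences of the genes are identical at 74.8% of 747 aligned bases, and in exon windows of 50 bases 100% of Psma8's occur at a single place in the mm9 genome.

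**Figure D2:**
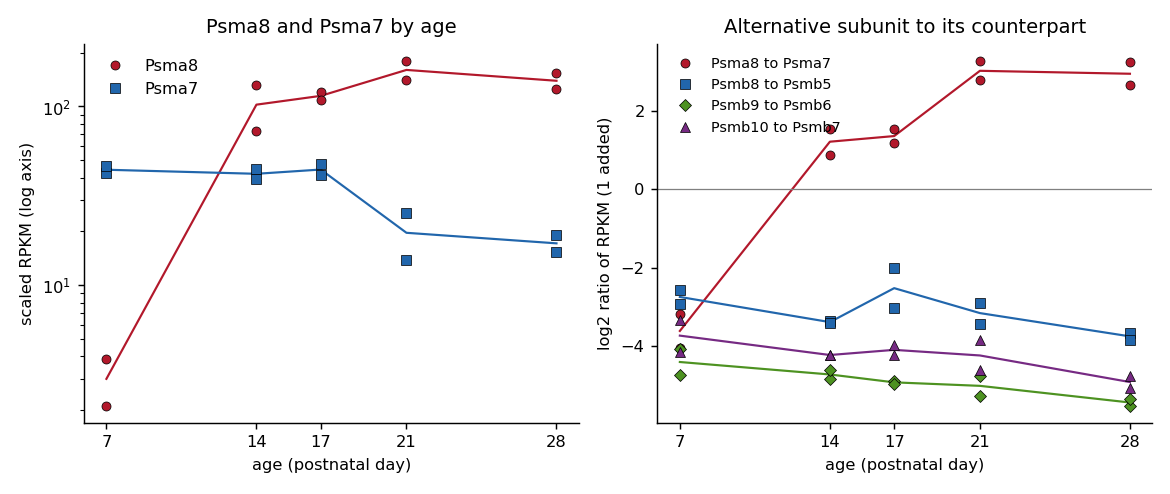
Left, scaled RPKM (log axis) of Psma8 and Psma7 in each of 10 mice by age, with lines through the means. Right, the log2 ratio of RPKM (1 added to each) of each alternative subunit to its counterpart in the same mice, where Psma8 to Psma7 climbs from -3.61 to 2.94 and the other 3 ratios stay below 0.

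Psma6, a constitutive alpha subunit at chr12:56485209-56519441 (mm9, plus strand), had the highest mean level of all members. Its levels were 122 and 121 scaled RPKM at PND 7, 136 and 168 at PND 14, 169 and 162 at PND 17, 155 and 184 at PND 21, and 476 and 622 at PND 28. The PND 28 mice stood above the other 8, which ranged from 121 to 184. The step from PND 21 to PND 28 was 3.24-fold (1.70 ± 0.23 on the log2 scale, SE, adjusted p = 0.00181, edgeR). Among the 5 alpha ring genes not called, log2 changes from PND 7 to PND 28 lay between -0.18 for Psma2 and 1.43 for Psma5, and Psma5 and Psma3 had mean levels of 2.48 and 3.36 scaled RPKM.

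In the 7 constitutive beta genes the proteolytic subunits Psmb5, Psmb6 and Psmb7 rose, Psmb2 fell and Psmb1, Psmb3 and Psmb4 were not called from PND 7 to PND 28. Psmb5, which carries the chymotrypsin-like site (chr14:55232644-55236851, mm9, minus strand), was at 6.30 and 11.8 scaled RPKM at PND 7, 15.3 and 16.4 at PND 14, 18.8 and 11 at PND 17, 12.9 and 13.5 at PND 21, and 20.6 and 26.5 at PND 28. Its PND 28 mice were above all others and its steps between neighbouring ages were not called. The rise over the whole span was 2.61-fold (adjusted p = 0.00885, edgeR), and without PND 28 mouse 2 the adjusted p was 0.054, as it was 0.0637 in limma on log2(RPKM + 1) without the filter.

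Psmb6, with the caspase-like site, was at 24.6 and 23.5 scaled RPKM at PND 7, 30.6 and 41.6 at PND 14, 43.9 and 44.9 at PND 17, 31.6 and 60.4 at PND 21, and 75 and 48.9 at PND 28. The mice of PND 21 and of PND 28 differed widely among themselves, yet all were above PND 7, and the rise was 2.58-fold (adjusted p = 0.00349, edgeR). Psmb7, with the trypsin-like site, was at 58.0 and 57.4 scaled RPKM at PND 7, 76.2 and 115 at PND 14, 111 and 109 at PND 17, 88.6 and 129.7 at PND 21, and 129 and 109 at PND 28. From PND 17 on its values overlapped from age to age, and its change from PND 7 to PND 28 was 2.06-fold (adjusted p = 0.00494, edgeR). Its step to PND 14 had an adjusted p of 0.066 by edgeR with all mice and passed at 0.0343 without PND 14 mouse 1, as it did with library totals, without the filter and in limma on log2(RPKM + 1).

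The inducible genes and the thymic gene stayed near the bottom of the list at all ages. Psmb10 was the highest of them, at 5.20 and 2.43 scaled RPKM at PND 7, 3.29 and 5.28 at PND 14, 5.11 and 6.10 at PND 17, 5.26 and 4.27 at PND 21, and 2.68 and 2.91 at PND 28. Psmb8 lay between 0.293 and 2.03 scaled RPKM, with both PND 17 mice on top, and Psmb9 between 0 and 0.826. None of the 3 tested was called by edgeR in any comparison with all mice. Limma on log2(RPKM + 1) called a fall of Psmb8 from PND 17 to PND 21 (adjusted p = 0.0473), and without PND 7 mouse 1, which left PND 7 at 0 counts, edgeR called Psmb9 higher at PND 14 and at PND 28. Psmb9 had 0 counts in PND 7 mouse 2, where a count of 0 allows up to 0.403 CPM, and its exons overlap Tap1 on the other strand, so their reads cannot be told apart unless strand was counted.

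Psmb11, the thymic subunit, had 1 count in each of 4 mice, 3 in PND 21 mouse 2 and 0 in the other 5. The floor of 3 counts in those 5 libraries was between 0.209 and 0.726 CPM, and the PND 7 and PND 28 mice gave 1 read between them. The log2 ratios of Psmb8 to Psmb5, with nothing added to either RPKM, had means of -4.23 at PND 7 and -5.18 at PND 28, and those of Psmb10 to Psmb7 had -4.06 and -5.40. For Psmb9 to Psmb6 no such ratio exists in PND 7 mouse 2. In the test over ages 1 RPKM was added to each gene, and since Psmb8 and Psmb9 lie near or below that level, the tested ratios follow Psmb5 and Psmb6 more than Psmb8 and Psmb9. None passed the exact permutation test (adjusted p = 0.146, 0.119 and 0.146, over 4 ratios). In the same permutation test Psmb8 to Psmb5 passed without PND 17 mouse 1 (adjusted p = 0.0254) and Psmb9 to Psmb6 without PND 7 mouse 2 (adjusted p = 0.036).

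The 19S ATPases form the ring that unfolds substrates and are all part of it, and 4 of the 6 (beside 62.6% of all genes) were called. Psmc3, Psmc2, Psmc5 and Psmc1 rose from PND 7 to PND 28, and Psmc4 and Psmc6 were not called, with log2 changes of -0.06 and -0.48. Psmc3 (chr2:90894166-90906526, mm9, plus strand, with 215 exon bases shared with Slc39a13 on the other strand) was at 42.6 and 40.1 scaled RPKM at PND 7, 74.7 and 114 at PND 14, 139 and 112 at PND 17, 193 and 258 at PND 21, and 478 and 395 at PND 28. Its level went up at each age apart from an overlap of PND 14 and PND 17, and the total was 10.6-fold (3.40 ± 0.30 on the log2 scale, SE, adjusted p = 4.48e-06, edgeR). The step to PND 14 was called at 2.28-fold (adjusted p = 0.0115), and those to PND 21 and PND 28 were not, at adjusted p of 0.067 and 0.055, though both passed under DESeq2, RLE scaling, no filter and without either PND 14 mouse.

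Psmc2 (chr5:21291101-21309605, mm9, plus strand) was at 15.7 and 10.8 scaled RPKM at PND 7, 22.0 and 29.7 at PND 14, 30.8 and 26 at PND 17, 39.0 and 43.7 at PND 21, and 91.5 and 85.7 at PND 28. It rose 1.95-fold to PND 14 (adjusted p = 0.0201) and 2.14-fold from PND 21 to PND 28 (adjusted p = 0.0207, edgeR), 6.70-fold in all. The last step did not pass in edgeR with library totals (adjusted p = 0.051), in limma on log2(RPKM + 0.1) (adjusted p = 0.11) or when any mouse of PND 21 or PND 28 was left out. Psmc5 went from 42.8 and 44.1 scaled RPKM at PND 7 through 53.0 and 84.3, 79.5 and 66.3, and 66.8 and 82.1 at the middle ages to 103 and 116 at PND 28, a 2.52-fold rise over the span (adjusted p = 9.80e-04, edgeR). In contrast, Psmc4 kept to between 28.2 and 37.5 scaled RPKM in all 10 mice.

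Of the 11 non-ATPase subunits of the 19S base and lid, 7 rose and none fell from PND 7 to PND 28, beside 35.6% of all genes called higher and 62.6% called in either direction. Psmd8, a lid subunit needed for joining lid and base (chr7:29959207-29965692, mm9, minus strand), was at 45.8 and 38.5 scaled RPKM at PND 7, 79.0 and 109 at PND 14, 118 and 97.3 at PND 17, 121 and 177 at PND 21, and 299.5 and 215 at PND 28. It rose 2.23-fold to PND 14 (adjusted p = 0.0145) and 6.10-fold in all (2.61 ± 0.29 on the log2 scale, SE, adjusted p = 2.42e-05, edgeR), more than any other Psmd gene. Both of its PND 28 mice were above the other 8. Psmd4, a ubiquitin receptor, was at 27.8 and 19.8 at PND 7, 27.9 and 38.2 at PND 14, 43.1 and 39.5 at PND 17, 38.1 and 50.3 at PND 21, and 60.6 and 51.4 at PND 28, 2.35-fold higher at the end (adjusted p = 0.00168, edgeR). Here too the PND 28 mice were the highest, though only just above PND 21 mouse 2. Psmd2, a scaffold for substrate shuttles, was at 22.4 and 21.4 at PND 7, 37.2 and 29.4 at PND 14, 31.8 and 34.6 at PND 17, 58.6 and 36.9 at PND 21, and 43.5 and 48.8 at PND 28, 2.11-fold higher (adjusted p = 0.00336, edgeR). This rise did not pass in limma on log2(RPKM + 0.1) (adjusted p = 0.0748) or in limma on log2(RPKM + 1) without the filter (adjusted p = 0.0785). All 8 later mice of Psmd2 lay above both PND 7 mice, and the highest was PND 21 mouse 1. Psmd13, Psmd11, Psmd6 and Psmd1 rose by less than 2-fold, between 0.50 and 0.81 on the log2 scale. The deubiquitinating lid subunit Psmd14 and the others, Psmd3, Psmd7 and Psmd12, were not called, with log2 changes from -0.35 to 0.42.

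**Figure D3:**
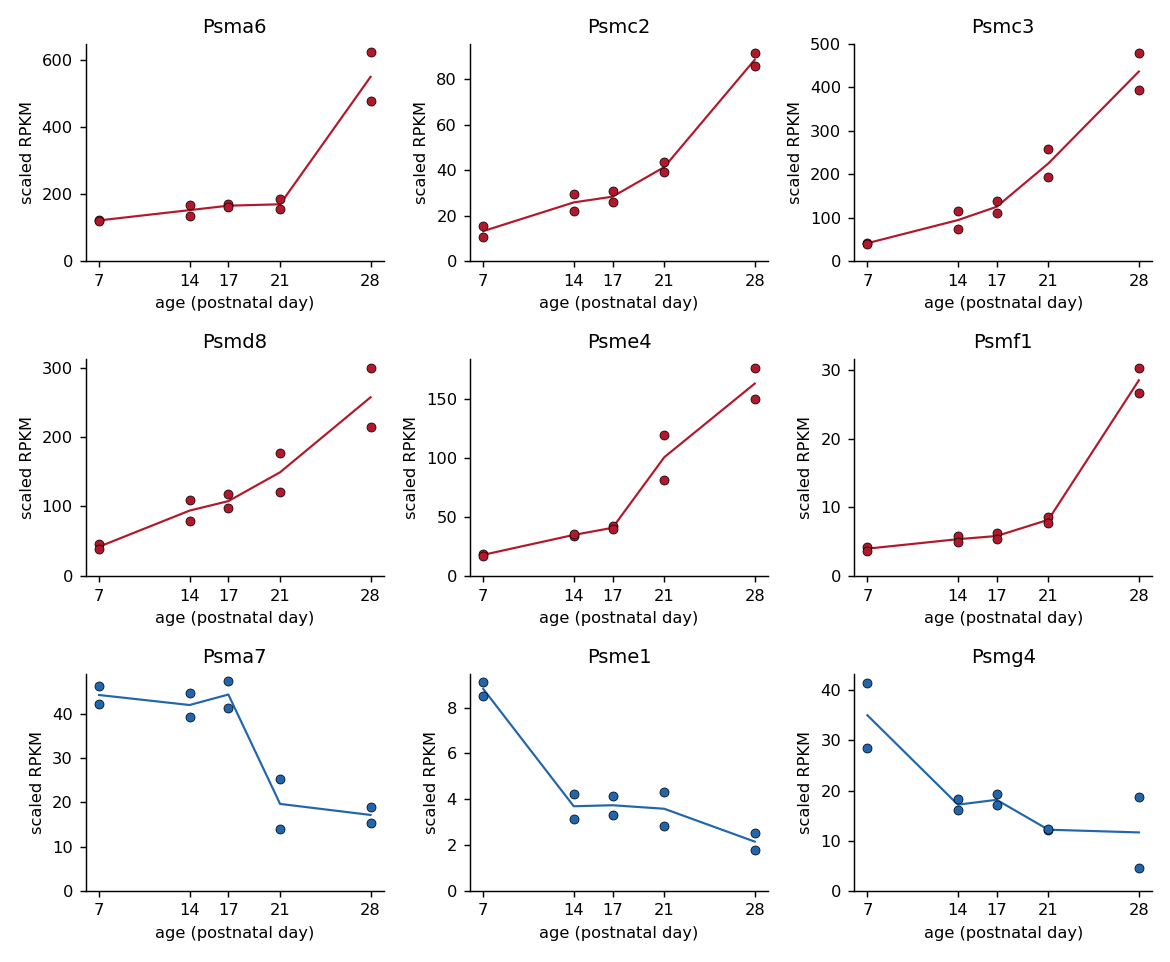
Scaled RPKM (y axis, from 0, own scale in each panel) by age for 9 members, 1 point per mouse with a line through the means of 2 mice. Psma6 and Psmf1 step up at PND 28, Psme4 at PND 21, Psma7 steps down at PND 21, and Psme1 is highest at PND 7.

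The activators moved in opposite directions. Psme4, the large activator of spermatids (chr11:30671726-30780361, mm9, plus strand), was at 18.9 and 16.9 scaled RPKM at PND 7, 33.6 and 35.9 at PND 14, 42.2 and 39.4 at PND 17, 119.6 and 81.5 at PND 21, and 149.9 and 176 at PND 28. Its mice did not overlap between any of the ages. It rose 1.94-fold to PND 14 (adjusted p = 0.019) and 2.46-fold from PND 17 to PND 21 (1.30 ± 0.25 on the log2 scale, SE, adjusted p = 0.00876, edgeR), 9.10-fold in all. Without a mouse of PND 17, or without PND 21 mouse 1, the step to PND 21 kept its direction at 1.01 to 1.35 on the log2 scale but had an adjusted p between 0.054 and 0.10, and in limma on log2(RPKM + 0.1) it had an adjusted p of 0.0519.

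Psme1, the interferon-inducible activator subunit (chr14:56196960-56200366, mm9, plus strand), was at 8.52 and 9.12 scaled RPKM at PND 7, 4.24 and 3.15 at PND 14, 3.31 and 4.16 at PND 17, 4.32 and 2.85 at PND 21, and 1.79 and 2.51 at PND 28. Both PND 7 mice were above all others. It fell 2.38-fold to PND 14 (adjusted p = 0.0296) and 4.15-fold in all (adjusted p = 8.02e-04, edgeR). The fall to PND 14 was -1.07 on the log2 scale and not called without PND 14 mouse 2 (adjusted p = 0.16, edgeR), nor without PND 7 mouse 2 or either PND 17 mouse, with library totals, on the mice compared alone or in limma on log2(RPKM + 0.1).

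Psme2, its partner in the same ring, was low at 2.50 and 2.06 scaled RPKM at PND 7, 2.50 and 2.23 at PND 14, 2.37 and 3.98 at PND 17, 1.22 and 1.29 at PND 21, and 1.39 and 0.523 at PND 28. All 4 mice from PND 21 on were below the earlier 6, and its log2 change from PND 7 to PND 28 was -1.18 (adjusted p = 0.096), called only by limma on RPKM and with library totals. Psme3, the nuclear activator, was at 32.9 and 35.2 at PND 7, 34.6 and 23.8 at PND 14, 24.7 and 26.7 at PND 17, 28.9 and 23.8 at PND 21, and 43.6 and 45.8 at PND 28. Its rise from PND 21 to PND 28 was not called by edgeR with all mice but was by DESeq2 (0.82 on the log2 scale, adjusted p = 0.0374) and by edgeR without either PND 14 mouse (adjusted p = 0.0432 and 0.0425). It was called in no other comparison of neighbouring ages or of PND 7 with PND 28, and the test of any difference among ages gave an adjusted p of 0.043.

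Psmf1, which encodes an inhibitor of the isolated core (chr2:151541548-151569922, mm9, minus strand), was at 4.26 and 3.69 scaled RPKM at PND 7, 5.79 and 4.92 at PND 14, 6.18 and 5.45 at PND 17, 8.63 and 7.74 at PND 21, and 30.3 and 26.7 at PND 28. The PND 28 mice stood far above the other 8. The step from PND 21 was 3.48-fold (1.80 ± 0.21 on the log2 scale, SE, adjusted p = 0.00116, edgeR) and the whole rise 7.16-fold. It passed under every alternative and with any mouse left out, as did the last step of Psma6.

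Among the 7 assembly chaperones, Psmg1, Psmg2 and Psmd9 rose and Psmg4 and Psmd5 fell from PND 7 to PND 28, 5 of 7 beside 62.6% of all genes. Psmg1, which with Psmg2 builds the alpha ring, was at 16.9 and 14.6 scaled RPKM at PND 7, 26.1 and 41.4 at PND 14, 40.1 and 33.9 at PND 17, 28.1 and 34.6 at PND 21, and 29.0 and 30.2 at PND 28. Psmg2 was at 21.4 and 26.8 at PND 7, 38.8 and 53.4 at PND 14, 42.5 and 49.8 at PND 17, 48 and 50.1 at PND 21, and 62.1 and 46.1 at PND 28. Both partners were higher in all 8 later mice than at PND 7, with a step to PND 14 of 2.14-fold for Psmg1 (adjusted p = 0.0157) and 1.91-fold for Psmg2 (adjusted p = 0.0238, edgeR). Neither step passed on the mice compared alone (adjusted p = 0.0508 for Psmg1 and 0.0597 for Psmg2, edgeR). Without PND 14 mouse 2 these steps were 0.71 for Psmg1 and 0.67 for Psmg2 on the log2 scale. The rise of Psmg1 over the whole span did not pass in edgeR with library totals (adjusted p = 0.0577), in any of the 3 limma fits (adjusted p from 0.0592 to 0.0891), or without PND 7 mouse 2 or PND 28 mouse 2 (adjusted p = 0.0636 and 0.052). Psmg4, which pairs with Psmg3 in the same assembly, was at 28.6 and 41.5 at PND 7, 16.1 and 18.3 at PND 14, 19.3 and 17.0 at PND 17, 12.1 and 12.3 at PND 21, and 18.7 and 4.58 at PND 28. It fell 2.88-fold over the span (adjusted p = 0.021, edgeR), but the PND 28 mice differed widely, and without PND 28 mouse 2 the change was -0.88 on the log2 scale (adjusted p = 0.11). Its fall also did not pass without PND 7 mouse 2 (adjusted p = 0.0854) or on the mice compared alone (adjusted p = 0.0715, edgeR). Psmg3 was not called, between 1.71 and 9.24 scaled RPKM.

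The 250 bases before the start of transcription are shown for the members whose level stepped at PND 21 or PND 28. They come from RefSeq's table (GRCm38.p6), where it holds them. Those of Psmb5 and Psmb6 are shown because they hold the antioxidant response element core described below. Psmd8, Psmc5, Psmd2 and Psmd4 also rose from PND 7 to PND 28, and their 250 bases, not printed, hold 0 matches to this core. The table held 43 start sites of 40 members, and none for Psmc3 or Psma8. Capitals mark exact matches, on either strand, to CCAAT, the box bound by NF-Y, or to TGACNNNGC, the core of the antioxidant response element that Nfe2l1 and Nfe2l2 bind. The windows are Psma6 at chr12:55383972-55384221 and chr12:55398575-55398824 (plus strand), Psmc2 at chr5:21785025-21785274 and chr5:21786497-21786746 (plus), Psme4 at chr11:30771525-30771774 (plus), Psmf1 at chr2:151741311-151741560 (minus), Psma7 at chr2:180042465-180042714 (minus), Psmb5 at chr14:54617996-54618245 (minus) and Psmb6 at chr11:70525107-70525356 (plus). Each is written from its gene's own strand.
Psma6 upstream start: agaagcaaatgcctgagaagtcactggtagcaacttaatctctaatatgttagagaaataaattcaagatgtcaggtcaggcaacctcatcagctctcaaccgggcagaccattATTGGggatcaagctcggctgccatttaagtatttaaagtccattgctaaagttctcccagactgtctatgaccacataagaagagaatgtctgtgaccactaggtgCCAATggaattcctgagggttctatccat
Psma6 downstream start: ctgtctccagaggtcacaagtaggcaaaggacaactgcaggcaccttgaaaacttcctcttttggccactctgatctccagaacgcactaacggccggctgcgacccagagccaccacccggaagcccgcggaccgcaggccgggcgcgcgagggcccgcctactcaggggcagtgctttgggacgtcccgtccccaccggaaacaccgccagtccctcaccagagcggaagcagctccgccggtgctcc
Psmc2 upstream start: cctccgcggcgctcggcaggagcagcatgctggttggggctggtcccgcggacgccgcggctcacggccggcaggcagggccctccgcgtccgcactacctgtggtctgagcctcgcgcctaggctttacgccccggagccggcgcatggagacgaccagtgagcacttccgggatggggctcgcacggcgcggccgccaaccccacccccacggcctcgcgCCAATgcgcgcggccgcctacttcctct
Psmc2 downstream start: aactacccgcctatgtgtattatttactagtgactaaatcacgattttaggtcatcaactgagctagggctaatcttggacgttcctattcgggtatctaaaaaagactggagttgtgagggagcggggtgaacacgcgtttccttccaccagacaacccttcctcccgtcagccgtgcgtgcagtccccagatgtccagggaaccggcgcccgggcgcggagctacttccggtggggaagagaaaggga
Psme4: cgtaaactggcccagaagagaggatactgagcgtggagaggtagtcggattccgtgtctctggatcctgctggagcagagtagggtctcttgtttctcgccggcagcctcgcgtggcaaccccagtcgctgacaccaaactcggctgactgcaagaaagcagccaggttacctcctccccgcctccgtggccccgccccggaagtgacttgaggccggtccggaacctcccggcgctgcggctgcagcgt
Psmf1: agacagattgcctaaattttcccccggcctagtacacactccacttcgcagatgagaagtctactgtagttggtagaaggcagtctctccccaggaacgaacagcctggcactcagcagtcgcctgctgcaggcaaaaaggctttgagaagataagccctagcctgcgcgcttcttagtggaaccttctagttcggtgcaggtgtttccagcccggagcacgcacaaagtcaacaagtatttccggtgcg
Psma7: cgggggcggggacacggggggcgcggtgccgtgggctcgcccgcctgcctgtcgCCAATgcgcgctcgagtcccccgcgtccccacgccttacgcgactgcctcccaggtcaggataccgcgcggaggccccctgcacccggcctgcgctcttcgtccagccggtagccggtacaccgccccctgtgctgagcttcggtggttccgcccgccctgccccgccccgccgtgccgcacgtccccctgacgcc
Psmb5: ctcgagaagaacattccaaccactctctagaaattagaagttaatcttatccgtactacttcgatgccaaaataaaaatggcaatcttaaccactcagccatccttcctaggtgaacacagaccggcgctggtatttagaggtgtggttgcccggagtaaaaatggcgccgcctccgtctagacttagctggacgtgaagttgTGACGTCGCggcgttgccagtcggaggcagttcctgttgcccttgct
Psmb6: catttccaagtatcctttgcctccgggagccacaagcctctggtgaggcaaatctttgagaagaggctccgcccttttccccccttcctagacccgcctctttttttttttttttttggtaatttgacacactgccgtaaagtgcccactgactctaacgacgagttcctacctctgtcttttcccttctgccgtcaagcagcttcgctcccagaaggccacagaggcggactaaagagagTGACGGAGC
The antioxidant response element core was present in 5 of the 43 member windows (11.6%), those of Psmb5, Psmb6, Psmc6, Psmd9 and Psmd12, beside 10.2% of all 32851 windows in the table. CCAAT was present in 14 (32.6%), beside 33.8% of all. The palindromic cyclic AMP response element TGACGTCA was in 0, beside 1.55% of all. Of the members shown, Psme4 and Psmf1 hold no match to any of these, and Psma6 and Psmc2 hold CCAAT only before their upstream start sites. The counts do not say which start was used, so the levels cannot be assigned to either start of Psma6 or Psmc2.

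Genes around the proteasome were counted in lists set by known role. Of 15 proteasome factors under other symbols, 12 were called from PND 7 to PND 28, 7 higher and 5 lower, beside 62.6% of all genes called, 35.6% higher and 27.1% lower. The same background holds for the short lists that follow. The 20S assembly factor Pomp was not called, at 59.3 to 96.9 scaled RPKM, and the substrate shuttle Rad23b rose by 2.01 on the log2 scale (adjusted p = 7.95e-05, edgeR), while the receptor Adrm1 fell by 1.57. Of 6 ubiquitin and ubiquitin-activating genes, 2 rose and 1 fell. The polyubiquitin gene Ubb rose from 9.09 and 4.89 scaled RPKM at PND 7 to 103 and 99.2 at PND 28 (adjusted p = 6.22e-06, edgeR), and the activating enzyme Uba6 fell by 0.91 on the log2 scale (adjusted p = 0.0025). The 3 genes that control transcription of proteasome genes all fell, Nfe2l1 by 0.96, Nfe2l2 by 1.62 and Ddi2 by 1.00 on the log2 scale.

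Markers of the testis cell types moved over the same ages. From PND 7 to PND 28 all 7 spermatid and 7 of 8 spermatocyte genes rose, 3 of 5 Leydig genes rose, and 5 of 7 Sertoli, 2 of 3 myoid and 2 of 3 endothelial genes fell. The summed Sertoli level was between 1063 and 1199 scaled RPKM at PND 7. It reached 1473 at PND 14 and 1455 at PND 17, and was between 754 and 772 at PND 28. That of 7 immune genes was between 13.0 and 14.0 at PND 7 and between 21.2 and 30.9 at PND 28. Of spermatogonial genes 1 rose, which was Dmrtb1, and 4 fell of 6. The summed level of these 6 was between 97.1 and 110.7 at PND 7 and between 196.5 and 253.6 at PND 28. Acrv1, Prm1, Prm2 and Tnp2 had no count in either PND 7 mouse. The part of these shifts in the members' changes was not tested.

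Reads that match several places in the genome can be lost from a gene, and the members differ in how far their exons are unique. The share of exon windows of 25 bases found at 1 place in mm9 was 16.7% for Psmb5, 42.4% for Psma5, 48.7% for Psmc1, 67.9% for Psmd2, 68.2% for Psmb7, 69.2% for Psma3, 70.5% for Psmb1, 71.6% for Psma4, 72.2% for Psme2, 76.7% for Psmb3 and 77.4% for Psmc2. With windows of 50 bases, the read length, the lowest were Psmb5 at 45.2% and Psma5 at 56.3%, and the rest were at 81.2% or above. Psma8, Psma6, Psme4 and Psmc3 were at 100% in windows of 50 bases. Mean levels of Psma5, Psma3 and Psmb3 were 2.48, 3.36 and 1.82 scaled RPKM, beside 231 for Psma6 and 98.2 for Psmb7. Unique windows of 50 bases made up 86.4% for Psmb3, 86.6% for Psma3 and 83% for Psmb7. Levels are divided by the length of all annotated exons joined. This was 3894 bases for Psma3, 2300 for Psmb3, 1321 for Psma5, 1234 for Psma6 and 1214 for Psmb7. Whether repeated sequence or exon length lowers these levels was not tested.

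**Figure D4:**
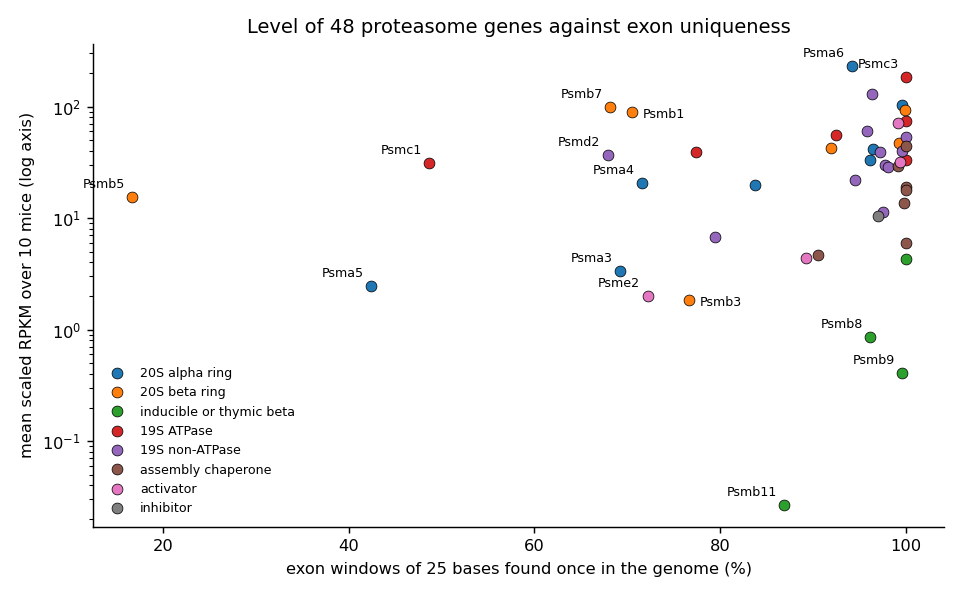
Mean scaled RPKM over 10 mice (y axis, log) of the 48 members against the percentage of their exon windows of 25 bases that occur once in mm9 (x axis), coloured by role. Psmb5 at 16.7% is farthest left, and Psmb11, Psmb9 and Psmb8 lie lowest, between 0.0268 and 0.866. The inducible Psmb10, at 4.25, lies above Psma3, Psma5, Psme2 and Psmb3.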

How the data were processed

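Testes of 10 mice, 2 at each of 5 ages, were analysed from 12 deposited libraries. The authors aligned 50-base SOLiD reads to mm9 with LifeScope, removed reads of repeats and of ribosomal and transfer RNA, and deposited for each Ensembl gene a raw count of unique reads on exons. The authors also deposited RPKM values, the count divided by exon length and by the reads counted. Whether strand was used is not given in the sources used here. Of each PND 7 mouse, counts of its 2 barcodes were summed and RPKM values averaged. No source used here ties mice to separate litters. The edgeR p-values set differences between ages against the spread between mice of the same age. That spread was estimated over all 5 ages together and with information from all genes tested. How far it covers differences between litters is not known.

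Counts were fitted with edgeR 4.0.16 (TMM, filterByExpr, quasi-likelihood, 16860 genes, all 10 mice, common dispersion 0.0726), and p-values were adjusted over all genes tested. Ratios between genes were tested on log2(RPKM + 1) of the deposited RPKM over all 113400 arrangements of age labels. Replicate numbers were not taken to pair mice between ages, so the fit has no block. Members, lists and tests were chosen with earlier results of these data known. Named with values in every mouse were members called with a 2-fold change in any comparison, the alternative subunits and their counterparts, the activators and inhibitor, and the highest and lowest member. Of these, Psmb8 and Psmb9 are given as ranges and Psmb11 as counts. Other genes were named after their values were seen. The list of antigen processing genes is not reported here. Alternatives were DESeq2 1.42.0, limma 3.58.1 on RPKM, other scaling, no filter, the mice compared alone, the mouse number as block and leaving out each mouse. The simulated data gave all genes 1 dispersion and changed 200 genes above a count limit by 4-fold, with the others constant. In them edgeR called between 175 and 182 of the 200, with 7 to 16 false calls. Changes nearer 2-fold, as for several called members, were not simulated. Exon windows were matched exactly to mm9 on both strands. A count of 0 allows 3 counts, and floors cover counting error only.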

Additional observations from a re-analysis of the deposited data

How the results depend on the processing

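Every called change of a named member kept its direction under all alternatives run. Of 31 called log2 fold changes, 17 passed under all of them, and of 589 alternative values of called changes 542 still passed and 47 did not, 31 of these with 1 mouse left out. From PND 7 to PND 14, 8 members were called with all settings as described, 5 when fitted on the mice compared alone and 5 with a 2-fold minimum, and between 1 and 10 with a mouse left out. From PND 17 to PND 21 the 2 members called became 4 with limma on log2(RPKM + 1), 1 with limma on log2(RPKM + 0.1), and between 0 and 3 with a mouse left out. From PND 21 to PND 28 the 3 became 5 with DESeq2 and between 2 and 5 with a mouse left out. From PND 7 to PND 28 the 26 became 17 with a 2-fold minimum. For these counts and the ratios, the cause of each change was not tested. The change in log2 ratio from PND 7 to PND 28 lay between -1.19 and -0.82 for Psmb8 to Psmb5, and between -1.35 and -0.71 for Psmb9 to Psmb6, with a mouse left out. No ratio changed its call when 0.1 RPKM was added in place of 1. With nothing added, an alternative chosen after seeing the data and possible for 3 of the ratios, none changed its call either. With the mouse number as a replicate block, 8, 0, 2, 3 and 25 members were called in the 5 comparisons and 17 for any change. Deviations of same-numbered mice correlated between ages with r from -0.21 to 0.37, over 0.1 in 2 of 10 pairs of ages. The highest r was between PND 14 and PND 21. As most pairs of ages had r at or under 0.1, the numbers were not taken to pair the mice. With 2 mice per age and total counts of 3994026 at the lowest, small changes of members at low levels, such as Psmb9 and Psmb3, could not be detected.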
